A study of Mus musculus with 24 samples.

Results

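The data described here cover 26 genes by which cells sense microbial products and pass the signal on, out of the 547 immune genes measured in the terminal ileum of 24 mice. The genes were taken by name: every table entry beginning with Tlr, Irak, Nod, Nlrp, Ticam or Clec, together with those found of a set list of adaptors and co-receptors. By role they comprised 11 receptors, 3 accessory proteins and 12 adaptors, kinases, inhibitors or proteases. The receptors were Tlr1, Tlr2, Tlr3, Tlr4, Tlr5, Tlr8, Tlr9, Nod2, Clec4a4, Clec4e and Clec5a. The accessory proteins were Cd14, Ly86 and Ly96. The signalling members were the adaptors Card9, Myd88, Tirap and Tmem173, the kinases Irak1, Irak2, Irak4 and Tbk1, the inhibitors Irak3, Sigirr and Tollip, and the protease Casp1.

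All mice were C57BL/6 and were sampled at week 7 of life. The PAT1 group (pulsed antibiotic treatment; 4 males, 3 females) was exposed to tylosin, a macrolide, through the milk of the treated dam for 5 days from day 5 of life. The PAT3 group (4 males, 6 females) had that course and further courses of 3 days each at days 27 and 36, and the Control group (4 males, 3 females) drank non-acidified water without antibiotic. Whole litters were assigned to a group and animals were caged by sex and treatment, so litter, cage and treatment cannot be told apart, and every test below treats the mice as independent animals. Groups follow the labels. A legend of the study divides the treated mice otherwise, with a single animal more in PAT1 and a single animal fewer in PAT3, so the group of a treated mouse may be in doubt in each comparison below.

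Toll-like receptors are membrane proteins that bind microbial lipids, proteins or nucleic acids. Most of them signal through the adaptor MyD88 and the IRAK kinases to NF-kappa-B, and Tlr3 signals through another adaptor. NOD2 detects fragments of bacterial cell wall in the cytosol, and C-type lectin receptors bind carbohydrates and other ligands, several of them signalling through CARD9. In the intestine these receptors face a dense resident microbiota, and inhibitors such as IRAK-M (Irak3), SIGIRR and TOLLIP restrain the pathway. The question addressed was whether expression of the receptors and of the machinery below them differed at week 7 after a single early course or after repeated courses.

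The promoters of Tlr2, Tlr1 and Tlr5 are shown because these were the Toll-like receptors with the largest differences from Control. Each line gives the 250 bases upstream of a RefSeq start site in mouse assembly GRCm38.p6, 5′ to 3′ on the strand of the gene. Tlr2 lies at chr3:83841609-83841858 on the minus strand, Tlr1 at chr5:64933559-64933808 on the minus strand and Tlr5 at chr1:182954538-182954787 on the plus strand. Capitals mark a match to the NF-kappa-B motif (GGG, any 3 bases, TTCC) in Tlr2 and to the PU.1 motif GAGGAAGT in Tlr1.
Tlr2: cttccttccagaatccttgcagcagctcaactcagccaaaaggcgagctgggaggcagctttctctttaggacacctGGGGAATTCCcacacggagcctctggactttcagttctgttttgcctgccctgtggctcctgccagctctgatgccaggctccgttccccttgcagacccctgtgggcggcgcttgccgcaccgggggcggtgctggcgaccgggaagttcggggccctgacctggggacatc
Tlr1: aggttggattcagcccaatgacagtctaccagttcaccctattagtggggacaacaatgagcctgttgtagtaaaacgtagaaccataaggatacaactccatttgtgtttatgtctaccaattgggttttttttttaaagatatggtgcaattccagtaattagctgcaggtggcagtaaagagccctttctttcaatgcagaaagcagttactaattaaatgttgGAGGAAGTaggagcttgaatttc
Tlr5: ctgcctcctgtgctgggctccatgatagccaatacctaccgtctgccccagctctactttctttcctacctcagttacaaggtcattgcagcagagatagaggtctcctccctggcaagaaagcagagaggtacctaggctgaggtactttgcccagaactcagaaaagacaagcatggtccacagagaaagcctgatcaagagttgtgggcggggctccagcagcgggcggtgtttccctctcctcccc
Windows of 300 bases (250 before and 50 after the start) were found for 20 of the 26 genes, 24 windows in all. Both strands were searched, and no match overlapped another in the lines shown. The NF-kappa-B motif was present in windows of 3 member genes (Tirap, Tlr2 and Tlr3) and in 5.56% of all 32851 promoter windows. The PU.1 motif was present in windows of 2 member genes (Tlr1 and Tlr9) and in 3.2% of all windows, and the interferon-stimulated response element (GAAA, any 2 bases, GAAA) in 1 (Myd88) and in 3.44%. The Tlr5 window held none of these letters, nor did a second Tlr1 window at chr5:64932700-64932949. No window was used here for Cd14, Clec4a4, Ly96, Sigirr, Tlr4 or Tmem173.

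The values below are log2 normalized counts of the NanoString nCounter assay, in which colour-coded probe pairs are counted on unamplified RNA. A probe's efficiency is its own, so levels were compared between mice and not between genes. A gene was called when limma's moderated test gave a Benjamini-Hochberg adjusted p under 0.05 over all 547 genes. Recovered totals ranged from 171671 counts (PAT1 replicate 1) to 782392 counts (PAT1 replicate 7). All 26 genes had counts in every mouse, the lowest being 4 counts, and only Clec4e averaged under 20 counts (8.79). The median log2 value over the panel stood at 6.97 for Control, 6.82 for PAT1 and 6.78 for PAT3, so scaling to that median would raise each log2 difference from Control by those gaps. The median log2 fold change of all 547 genes on the deposited scale was 0.01 in PAT1 and 0.03 in PAT3.

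After a single course, 6 of the 26 genes differed from Control, against 18.5% of all genes on the panel. Tlr1, Tlr2, Tlr4, Nod2 and Tmem173 were lower and Clec4a4 was higher. After 3 courses 6 of 26 differed, against 31.8% of all genes: Tlr1, Tlr2 and Tmem173 were lower, whereas Tlr5, Irak3 and Sigirr were higher. The share of members called, 23.1% in both comparisons, was therefore slightly above the panel's share in PAT1 and below it in PAT3. By direction, PAT1 had 1 member above Control and 5 below (7.31% and 11.2% of all genes), and PAT3 had 3 above and 3 below (13.9% and 17.9%). By limma's F-test 8 of 26 members differed among the 3 groups, against 34.6% of all genes. Both comparisons use the same 7 Control mice.

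**Figure D1:**
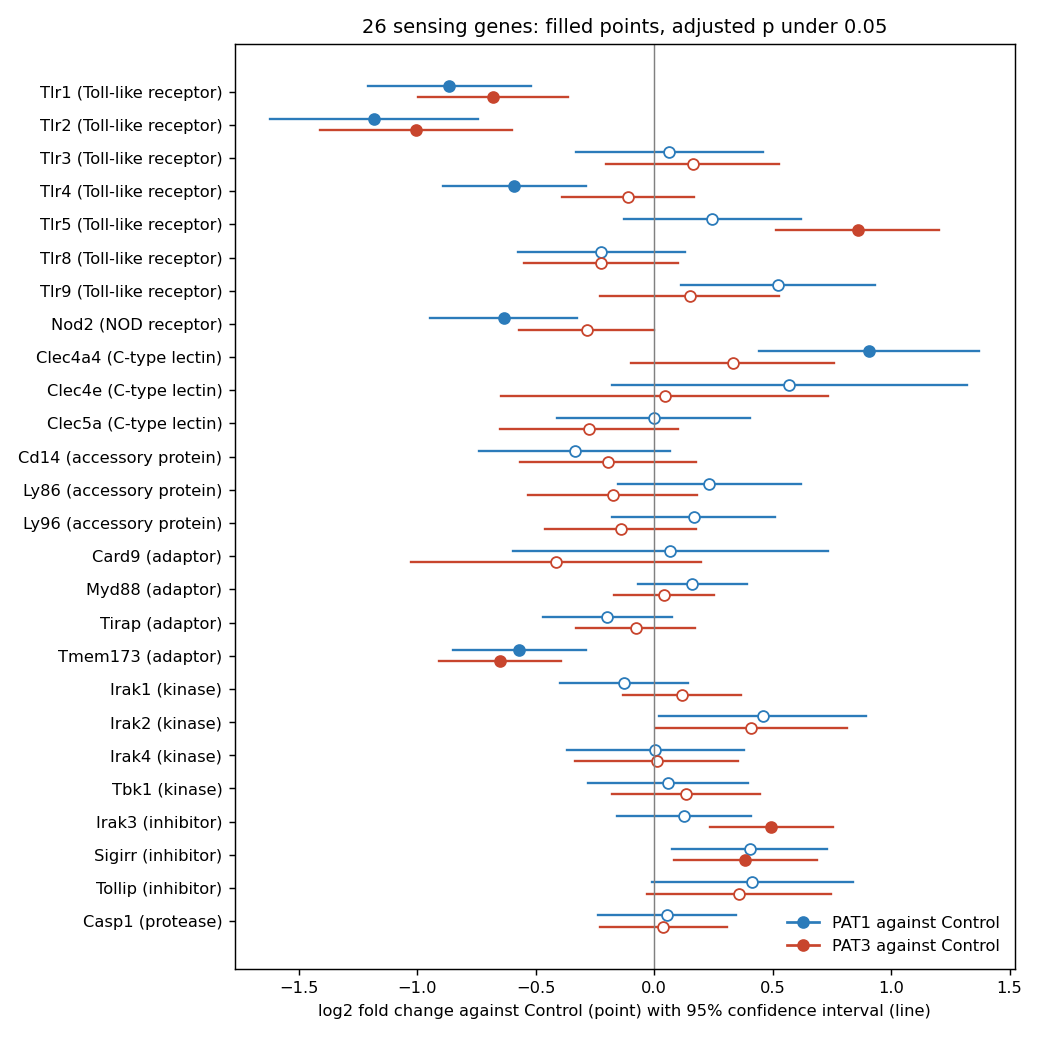
Log2 fold change (points) with 95% confidence interval (lines) of each of the 26 sensing genes in PAT1 (blue, n = 7) and PAT3 (red, n = 10) against Control (n = 7). Filled points passed an adjusted p of 0.05: 6 genes in PAT1 and 6 in PAT3, with Tlr1, Tlr2 and Tmem173 lower in both and Tlr5 filled in PAT3 alone.

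Tlr2, which pairs with Tlr1 or Tlr6 to bind bacterial lipoproteins, showed the largest difference of any member. Control mice had log2 values from 5.41 to 6.64 (median 6.25), PAT1 mice from 4.46 to 5.56 (median 5.02) and PAT3 mice from 4.24 to 5.80 (median 5.29). The ranges overlapped through the lowest Control, a female, but 5 of 7 PAT1 mice and 9 of 10 PAT3 mice lay below every Control mouse. Tlr2 was 2.27-fold lower in PAT1 (log2 fold change −1.18, SE 0.21, adjusted p = 0.000355) and 2.01-fold lower in PAT3 (−1.004, SE 0.20, adjusted p = 0.000334). Median counts were 86 for Control, 26 for PAT1 and 45.5 for PAT3 mice, for which counting error alone was 10.8% in Control and 19.6% in PAT1. In whole tissue, fewer cells of a type and less RNA per cell cannot be told apart, which applies to each gene here.

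Tlr1, the partner of Tlr2 for triacylated lipoproteins, was lower in the same groups. Values ran from 8.23 to 8.82 (median 8.59) in Control, from 7.17 to 8.19 (median 7.68) in PAT1 and from 7.61 to 8.66 (median 7.79) in PAT3. All 7 PAT1 mice and 9 of 10 PAT3 mice were below every Control, and the exception was PAT3 replicate 4, a male at 8.66. The decrease was 1.82-fold in PAT1 (log2 fold change −0.86, SE 0.17, adjusted p = 0.000558) and 1.60-fold in PAT3 (−0.68, SE 0.15, adjusted p = 0.00154). Tlr1 and Tmem173 were the members whose PAT1 range did not overlap that of Control, as was the case for 6.22% of all genes.

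Tlr4, the receptor for lipopolysaccharide, was lower than in Control after the single course. Control values were 6.95 to 7.38 (median 7.15), PAT1 values 6.29 to 6.96 (median 6.58) and PAT3 values 6.56 to 7.46 (median 7.06). After a single course 6 of 7 mice lay below all Controls, while after 3 courses the range spanned that of Control and overlapped that of PAT1. Tlr4 was 1.51-fold lower in PAT1 (log2 fold change −0.59, SE 0.15, adjusted p = 0.00496), and this call was lost after re-centring on the median of all genes (−0.45, adjusted p = 0.0567). It was also lost in females alone (−0.27, adjusted p = 0.594). Control and PAT1 means were 7.02 and 6.75 in females and 7.27 and 6.43 in males. The test for a difference in treatment effect between the sexes did not call Tlr4 (adjusted p = 0.420). In PAT3 the log2 fold change was −0.11 (95% confidence interval −0.39 to 0.17, adjusted p = 0.550). The direct comparison of PAT3 with PAT1 gave a difference of 0.48 (SE 0.14, adjusted p = 0.0401), a call that the methods' test, an analysis of variance with Tukey's post hoc comparison (adjusted p = 0.156), and 13 of 24 fits with 1 mouse left out did not make. It was 0.68 in males alone (adjusted p = 0.0144) and 0.26 in females alone (adjusted p = 0.746).

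Tlr5, which recognizes flagellin, was the only Toll-like receptor called higher. Values ran from 4.67 to 5.52 (median 5.13) in Control, from 4.44 to 6.02 (median 5.31) in PAT1 and from 5.63 to 6.20 (median 5.90) in PAT3. All 10 PAT3 mice exceeded every Control mouse, and Tlr5 was the single member whose PAT3 range did not overlap that of Control, against 9.32% of all genes. The increase in PAT3 was 1.81-fold (log2 fold change 0.86, SE 0.17, adjusted p = 0.000334). PAT1 was more dispersed (SD 0.52, against 0.28 in Control and 0.17 in PAT3), with 3 of 7 mice above all Controls and a log2 fold change of 0.25 (95% confidence interval −0.13 to 0.62, adjusted p = 0.394). Those 3 mice were the females, whose mean was 5.76, against 4.97 in the 4 males, whereas PAT3 females and males averaged 5.95 and 5.88. Tlr5 was higher in PAT3 than in PAT1 by 0.61 (SE 0.17, adjusted p = 0.0401), and all 10 PAT3 mice lay above the PAT1 mean. That difference was 0.91 in males alone (adjusted p = 0.0130) and 0.19 in females alone (adjusted p = 0.746), and like the Tlr4 call it was lost by the methods' test and in 13 of 24 fits with 1 mouse left out.

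Nod2 was lower after the single course. Control values ran from 3.89 to 4.93 (median 4.53), PAT1 values from 3.63 to 4.19 (median 3.86) and PAT3 values from 3.90 to 4.58 (median 4.18). Of the PAT1 mice 4 of 7 were below every Control, and all 7 were below the Control mean. The decrease in PAT1 was 1.55-fold (log2 fold change −0.63, SE 0.15, adjusted p = 0.00359), from a median of 26 counts to one of 14. At those medians counting error alone was 19.6% in Control and 26.7% in PAT1. The lowest Nod2 count was 5, and whether background counts bear on the call was not tested. In PAT3 the log2 fold change was −0.28 (95% confidence interval −0.57 to 0.00065, adjusted p = 0.115). Without Control replicate 1, the lowest Control mouse, it was −0.39 (adjusted p = 0.0324). Removing that mouse can only enlarge the difference, and no other fit with 1 mouse left out called Nod2 in PAT3. With sample weights Nod2 was called lower in PAT3 on all mice (−0.34, adjusted p = 0.0110).

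Clec4a4, which encodes the dendritic cell lectin DCIR2, moved the other way. Control values ran from 3.90 to 4.69 (median 4.30), PAT1 values from 4.58 to 5.70 (median 5.11) and PAT3 values from 3.90 to 5.36 (median 4.45). After a single course 6 of 7 mice were above all Controls, and after 3 courses 4 of 10. Clec4a4 was 1.88-fold higher in PAT1 (log2 fold change 0.91, SE 0.22, adjusted p = 0.00496). In PAT3 the log2 fold change was 0.33 (95% confidence interval −0.10 to 0.76, adjusted p = 0.233). There 4 of 39 alternative settings called it and 35 did not. It was called once samples were re-centred on their median (0.52, adjusted p = 0.0487). It was also called with the mean of a list of mature enterocyte genes (0.49, adjusted p = 0.0348) or of macrophage genes (0.52, adjusted p = 0.0468) as a covariate. The difference between PAT3 and PAT1 was −0.58 (95% confidence interval −1.004 to −0.15, adjusted p = 0.0785). It was called in 6 of 39 alternative settings, the same 2 covariates among them (adjusted p = 0.0288 and 0.0491). The median count was 23 in Control and 29 in PAT1, with a counting error of 20.9% and 18.6%. The highest Clec4a4 values, 5.28 to 5.70, came from PAT1 replicates 1, 2 and 3 and PAT3 replicates 5 and 7. These were also the samples with the lowest totals, 171671 to 415314 counts. Before division by the size factor their counts were 21 to 39, against 12 to 30 in Control and 24 to 52 in PAT1 replicates 4 to 7. With the size factor as a covariate the PAT1 call was still made. That covariate does not model a constant background count, and whether depth or background bears on the call was not tested otherwise.

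**Figure D2:**
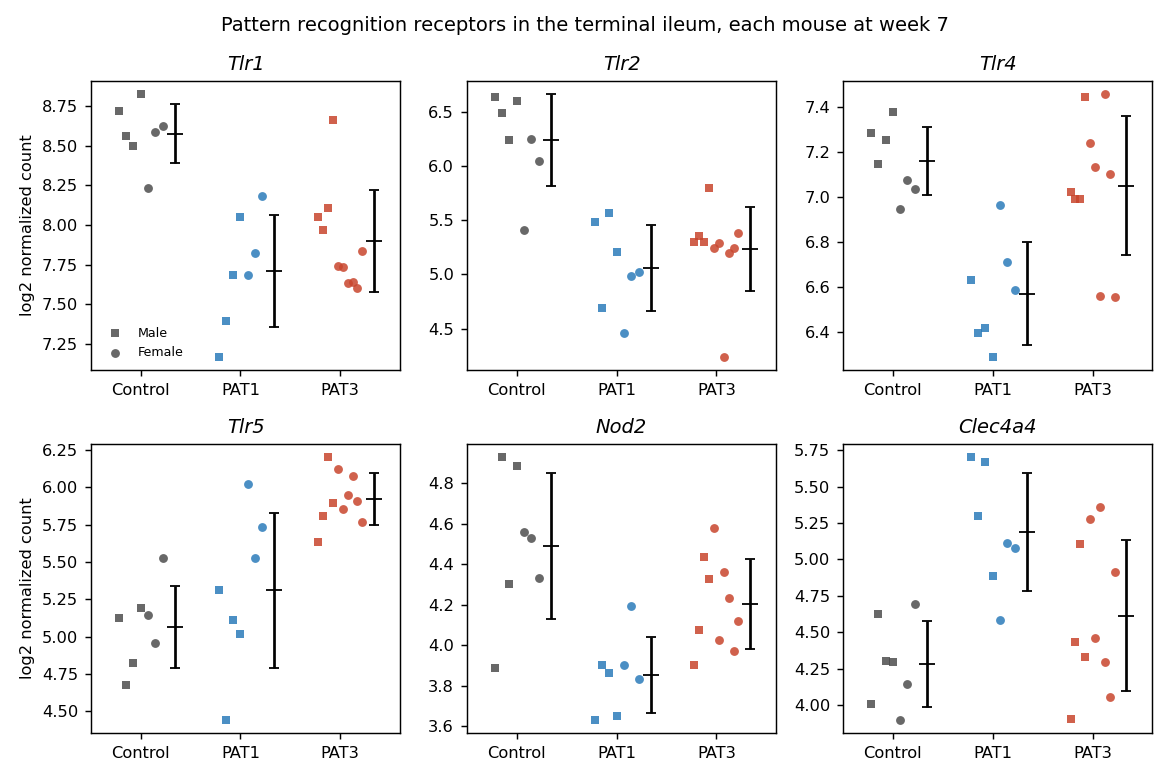
Log2 normalized count of Tlr1, Tlr2, Tlr4, Tlr5, Nod2 and Clec4a4 in each mouse (squares, males; circles, females), with the mean and SD of each group drawn beside its points; each panel has its own axis, which does not start at 0. Tlr1 and Tlr2 were lower in both antibiotic groups, all 10 PAT3 mice exceeded every Control for Tlr5, and Clec4a4 was highest in PAT1.

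The remaining 5 receptors were not called in any comparison. Tlr3, which senses double-stranded RNA, had a log2 fold change of 0.06 in PAT1 and 0.16 in PAT3. Tlr8, an endosomal receptor related to the RNA sensor Tlr7, was at −0.22 in both, with 4 of 7 PAT1 mice and 4 of 10 PAT3 mice below all Controls. Tlr9, the receptor for unmethylated CpG DNA, was at 0.52 in PAT1 (95% confidence interval 0.11 to 0.93, adjusted p = 0.0666) and 0.15 in PAT3. Re-centring on the median called Tlr9 higher in PAT1 (0.67, adjusted p = 0.00533). PAT1 replicate 7 had the highest Tlr9 value (7.12, against 5.33 to 6.19 in Control), and its B cell and follicle genes summed to 8099.5 normalized counts, against at most 3653 in Control. With that list as a covariate the Tlr9 difference in PAT1 was 0.34 (adjusted p = 0.190). With the other lists it was called, at 0.67 for enterocyte genes (adjusted p = 0.00742), 0.69 for macrophage genes (adjusted p = 0.0310) and 0.73 for T cell genes (adjusted p = 0.0194). The part of B cells in the Tlr9 difference was not tested otherwise. Clec4e (Mincle) was at 0.57 in PAT1 and 0.04 in PAT3, with intervals reaching 0.75 and 0.69 to each side, and Clec5a was at −0.0019 and −0.27.

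The 3 accessory proteins were not called. Cd14, the co-receptor that hands lipopolysaccharide to Tlr4, had a log2 fold change of −0.34 in PAT1 (95% confidence interval −0.74 to 0.07) and −0.19 in PAT3. Ly96 (MD-2), which forms the lipopolysaccharide-binding complex with Tlr4, was at 0.17 in PAT1 (95% confidence interval −0.18 to 0.51) and −0.14 in PAT3. Ly86 (MD-1), the partner of a Toll-related receptor of B cells, was at 0.23 and −0.17.

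Among the adaptors Tmem173 was called. It encodes STING, which relays the detection of cytosolic DNA to the kinase TBK1. Control values ran from 6.79 to 7.44 (median 7.06), PAT1 values from 6.26 to 6.71 (median 6.59) and PAT3 values from 6.00 to 6.84 (median 6.49). All 7 PAT1 mice and 8 of 10 PAT3 mice were below every Control. The decrease was 1.48-fold in PAT1 (log2 fold change −0.57, SE 0.14, adjusted p = 0.00371) and 1.57-fold in PAT3 (−0.65, SE 0.13, adjusted p = 0.000296). PAT3 and PAT1 differed by −0.08 (95% confidence interval −0.34 to 0.18, adjusted p = 0.708).

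The adaptors of the Toll-like receptors themselves were not called. Myd88, shared by nearly all of them, averaged 8.79 ± 0.12 (SD) over 7 Control mice, 8.95 ± 0.19 over 7 PAT1 mice and 8.83 ± 0.17 over 10 PAT3 mice. Its log2 fold change was 0.16 in PAT1 (95% confidence interval −0.07 to 0.39) and 0.04 in PAT3 (−0.17 to 0.25). Tirap, which brings MyD88 to Tlr2 and Tlr4, was at −0.20 in PAT1 (95% confidence interval −0.47 to 0.07) and −0.08 in PAT3 (−0.33 to 0.17). In PAT1 Tirap was called lower with the enterocyte list (−0.30, adjusted p = 0.0479) or T cell list (−0.42, adjusted p = 0.0198) as a covariate. Of the adaptors Card9 varied most between mice of a group (SD 0.69 in Control, 0.48 in PAT1 and 0.69 in PAT3), with log2 fold changes of 0.07 in PAT1 and −0.42 in PAT3 (95% confidence interval −1.03 to 0.20). In PAT3 Card9 was called lower with the enterocyte list (−0.70, adjusted p = 0.0145) or the macrophage list (−0.88, adjusted p = 0.000934) as a covariate.

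The 4 kinases were not called either. Irak4, the first kinase recruited by MyD88, had a log2 fold change of 0.0057 in PAT1 and 0.01 in PAT3, and Irak1, its substrate, of −0.13 and 0.12. Tbk1 was at 0.06 and 0.14. Irak2, which sustains signalling, was at 0.46 in PAT1 (95% confidence interval 0.02 to 0.90, adjusted p = 0.151) and 0.41 in PAT3 (0.0071 to 0.81, adjusted p = 0.110). In PAT3 Irak2 was called without replicate 5 (0.51, adjusted p = 0.0268), the mouse with the lowest Irak2 value of its group. Removing that mouse can only raise the difference, and no other fit with 1 mouse left out called Irak2. Casp1, the protease that matures Il1b and Il18, was at 0.05 and 0.04, and its intervals did not extend beyond 0.34 in PAT1 or 0.31 in PAT3.

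The 3 inhibitors had positive log2 fold changes in both groups, as had 284 of all 547 genes in PAT1 and 285 in PAT3. In PAT3 Irak3 and Sigirr were called higher, against 13.9% of all genes. Irak3, an IRAK family protein that restrains signalling by the others, had values of 6.37 to 6.88 (median 6.63) in Control, 6.46 to 7.09 (median 6.84) in PAT1 and 6.68 to 7.38 (median 7.21) in PAT3. After 3 courses 9 of 10 mice lay above all Controls. Irak3 was 1.41-fold higher in PAT3 (log2 fold change 0.49, SE 0.13, adjusted p = 0.00414), whereas in PAT1 the log2 fold change was 0.13 (95% confidence interval −0.16 to 0.41, adjusted p = 0.574). The difference between the antibiotic groups was 0.37 (95% confidence interval 0.11 to 0.63, adjusted p = 0.0711).

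Sigirr, a receptor-like inhibitor of Toll and interleukin-1 signalling prominent in epithelium, had values of 8.21 to 8.81 (median 8.45) in Control, 8.12 to 9.24 (median 9.05) in PAT1 and 8.52 to 9.13 (median 8.99) in PAT3. The ranges overlapped, with 5 of 7 PAT1 mice and 7 of 10 PAT3 mice above all Controls. The increase in PAT3 was 1.31-fold (log2 fold change 0.38, SE 0.15, adjusted p = 0.0467), close to the threshold, and 22 of 40 alternative settings did not call it. In PAT1 the log2 fold change was 0.40 (95% confidence interval 0.08 to 0.73, adjusted p = 0.0785). Without replicate 1, the shallowest sample and the lowest of its group for Sigirr, it was 0.54 (adjusted p = 0.00654). That removal can only raise the difference, and no other fit with 1 mouse left out called Sigirr in PAT1. Tollip was at 0.42 in PAT1 (95% confidence interval −0.0069 to 0.84) and 0.36 in PAT3 (−0.03 to 0.75) and was not called. Without PAT3 replicate 5, the lowest of its group for Tollip, it was called in PAT3 (0.48, adjusted p = 0.0190). That removal can only raise the difference, and no other fit with 1 mouse left out called Tollip. With sample weights Tollip was called in PAT3 on all mice (0.40, adjusted p = 0.00867).

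**Figure D3:**
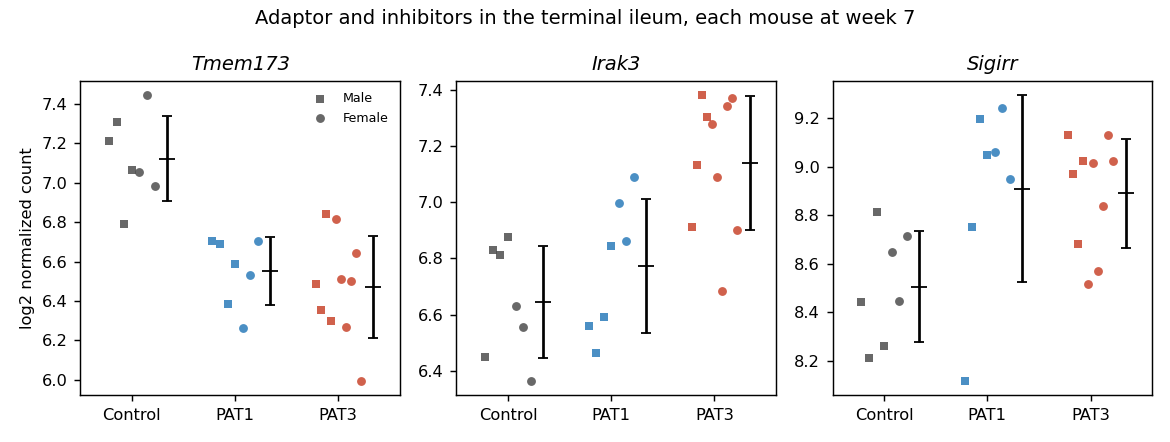
Log2 normalized count of Tmem173, Irak3 and Sigirr, the called members among the adaptors, kinases and inhibitors, in each mouse (squares, males; circles, females) with the mean and SD of each group; the axes differ and do not start at 0. All 7 PAT1 mice were below every Control for Tmem173, and 9 of 10 PAT3 mice were above every Control for Irak3.

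Receptors and signalling members were compared by their counts and medians. Of 11 receptors 5 were called in PAT1 and 3 in PAT3, against 1 and 3 of 12 signalling members, and over both comparisons with Control 6 receptors and 3 signalling members were called, against 36.2% of all genes. The median log2 fold change of the receptors was −0.0019 in PAT1 and −0.11 in PAT3, and that of the signalling members 0.06 and 0.08. Re-centring on the median of all genes raised the receptor medians to 0.14 and 0.08 and the signalling medians to 0.21 and 0.27. Receptors had no common direction, with 5 above and 6 below 0 in each group, and the median size of their difference, regardless of sign, was 0.57 in PAT1 and 0.27 in PAT3. The corresponding size for the signalling members was 0.15 and 0.25, and for all 547 genes 0.27 and 0.35. The receptor size in PAT1 was the value of Clec4e, which averaged 8.79 counts and was not called. Receptors averaged from 8.79 (Clec4e) to 310.5 counts (Tlr3), and signalling members from 112.8 (Tmem173) to 4282 (Casp1). Low counts carry more counting error, which enlarges such sizes, so the sizes of the 2 classes are not on an equal footing. The difference between the classes was not tested, because the members share mice and were chosen as a set.

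**Figure D4:**
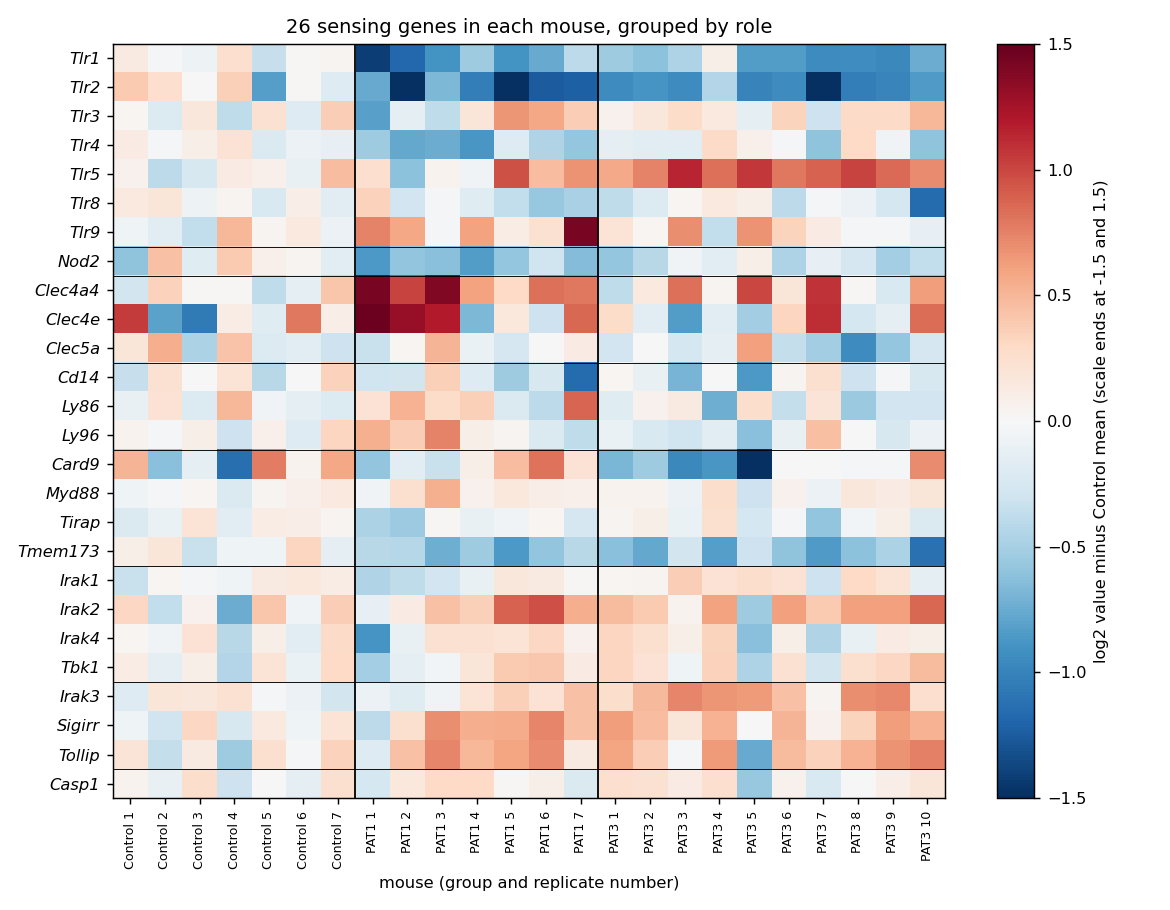
Log2 value of each of the 26 genes in each mouse minus the Control mean of that gene, with genes in rows grouped by role and mice in columns by group (blue lower, red higher; the colour scale ends at 1.5 in either direction). Tlr1, Tlr2 and Tmem173 form blue rows across both antibiotic groups (apart from PAT3 replicate 4 for Tlr1), Tlr5 a red row in PAT3, and PAT3 replicate 5 is low for Irak2, Irak4, Tbk1, Tollip and Casp1.

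Over the members, each PAT1 mouse had between 4 and 10 of the 26 genes below the Control range and between 5 and 9 above it. Each PAT3 mouse had between 3 and 11 below and 4 and 11 above. The same counts were not made over the whole panel. A mouse without any difference would also leave the range of so few Controls for some genes, so no excess can be read from these counts. Single mice held many of the extremes. PAT3 replicate 5 had the lowest value of its group for 10 members, among them Irak2, Irak4, Tbk1, Tollip, Sigirr, Casp1, Myd88 and Card9, and PAT1 replicate 1 for 13. Control replicate 4 was the lowest Control for 9 members, including Irak2, Irak4, Tbk1, Tollip, Casp1 and Card9. These 3 mice also had the lowest sum of mature enterocyte genes in their groups, 22599, 30843 and 36584 normalized counts, against group medians of 58424 (PAT3), 60618 (PAT1) and 60602 (Control). Whether that bears on these signalling genes was not tested. The enterocyte list was written in earlier work after these data had been seen.

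PAT3 and PAT1 were also compared directly. The last course began at day 36 (3 days) in PAT3 and at day 5 (5 days) in PAT1. The number of courses and the time since the last exposure therefore cannot be told apart in this comparison. Of the 26 genes 2 were called, Tlr4 and Tlr5, both higher in PAT3, against 4.2% of all genes called and 1.46% called higher. The methods' test called neither (adjusted p = 0.156 for both) and no gene of the panel. By limma 6 members had an unadjusted p under 0.05 in this comparison, against 28.5% of all genes. Leaving out 1 mouse at a time removed both calls in 13 of 24 fits. In those fits the Tlr4 difference was 0.43 to 0.49 (adjusted p from 0.0535 to 0.135) and the Tlr5 difference 0.47 to 0.68 (adjusted p from 0.0542 to 0.135), and in 12 of the 13 no gene of the panel was called. The mice concerned were PAT1 replicates 1, 2, 3, 4 and 7 and PAT3 replicates 1, 2, 3, 4, 5, 6, 8 and 9. Tlr1, Tlr2 and Tmem173, the members called in both antibiotic groups (14.1% of all genes were), differed between PAT3 and PAT1 by 0.19 (95% confidence interval −0.13 to 0.50), 0.18 (−0.23 to 0.58) and −0.08 (−0.34 to 0.18).

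No member was called between females and males by limma in a fit with treatment (0.366% of all genes were), although 6 had an unadjusted p under 0.05, against 11.7% of all genes. Card9 was higher in females by 0.70 (SE 0.21, unadjusted p = 0.00295, adjusted p = 0.171), with means of 8.62, 8.65 and 7.97 in Control, PAT1 and PAT3 females and 7.81, 7.90 and 7.39 in the males. Tlr2 was lower in females by a difference of −0.43 (adjusted p = 0.195). The effect of treatment did not pass the test for a difference between the sexes for any member, the smallest adjusted p being 0.197 for Tlr1. The Tlr1 means in males and females were 8.65 and 8.48 in Control, 7.57 and 7.90 in PAT1, and 8.20 and 7.70 in PAT3. By limma 4 members had an unadjusted p under 0.05 in that test, against 18.3% of all genes. PAT3 held 6 females among 10 mice and the other groups 3 among 7, and with sex as a covariate Sigirr in PAT3 (adjusted p = 0.0615) was the one call of a member against Control that was lost.

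Genes further along the pathway were examined with lists of downstream signalling proteins and of target genes. Of 26 downstream genes 2 rose and 1 fell in PAT1 (11.5% called, against 18.5% of all genes), while 8 rose and 2 fell in PAT3 (38.5% called, against 31.8%). By direction, 7.31% of all genes rose and 11.2% fell in PAT1, and 13.9% rose and 17.9% fell in PAT3. Nfkbiz, an inducible NF-kappa-B cofactor, was lower in both groups (log2 fold change −1.24 in PAT1 and −0.997 in PAT3). Relb, a subunit of the alternative NF-kappa-B pathway, was higher in both (1.20 and 0.83), and its partner Nfkb2 was called in PAT3 (0.53). Irf7, an interferon regulatory factor, was higher in PAT1 (1.38, adjusted p = 0.0153), and Map4k1, a kinase of blood cells, was lower in PAT3 (−0.93). The median log2 fold change of the list was 0.16 in PAT1 and 0.25 in PAT3, against 0.01 and 0.03 over all genes.

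Of 20 target genes 4 fell in PAT1 and 7 in PAT3, and none rose. The shares called, 20% and 35%, were near those of all genes (18.5% and 31.8%), of which 11.2% and 17.9% fell. Nos2, which encodes inducible nitric oxide synthase, was lower by −2.43 in PAT1 and −3.05 in PAT3 on the log2 scale, and the chemokine Ccl5 by −1.32 and −1.97. Il18 was lower in PAT3 (−1.05, adjusted p = 0.00106), and its PAT1 value was −0.69 (adjusted p = 0.0525). The chemokine Cxcl10 was lower in both (−0.78 and −0.96) and Cxcl1 in PAT3 (−0.88). The median over the list was −0.17 in PAT1 and −0.33 in PAT3, and 11 of the 20 genes had a median count under 20. The cytosolic RNA sensors Ddx58 and Ifih1 were not called, with log2 fold changes of 0.40 and 0.21 in PAT1 and 0.44 and 0.15 in PAT3.

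**Figure D5:**
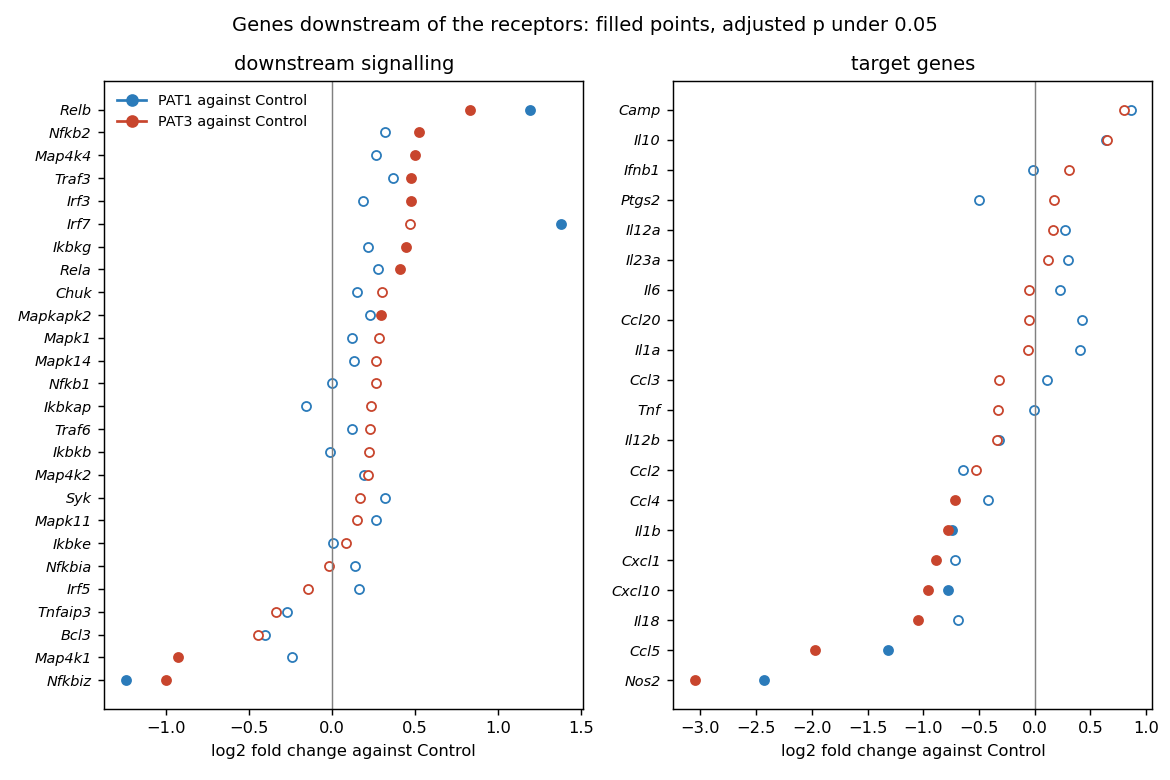
Log2 fold change against Control of 26 downstream signalling genes (left) and 20 target genes (right) in PAT1 (blue) and PAT3 (red); filled points passed an adjusted p of 0.05, and the horizontal axes differ. Called target genes all lie to the left of 0, whereas called downstream genes lie on both sides, with Nfkbiz lowest and Irf7 and Relb highest.

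Markers of the cells that carry these receptors were read beside them. Of 10 macrophage and monocyte genes 2 were lower in both groups, Itgam (log2 fold change −0.92 in PAT1 and −0.68 in PAT3) and Msr1 (−0.61 and −0.46), while the lineage markers Csf1r (−0.26 and −0.12) and Emr1 (−0.17 and −0.05) were not called. The list summed to 1943 to 2810 normalized counts in Control, 1677 to 2223 in PAT1 and 1709 to 2521 in PAT3. Of 5 dendritic cell genes Irf8 was lower in both groups (−0.52 and −0.53), with sums of 1345 to 1678, 900.5 to 1249 and 965.9 to 1355. Of 6 neutrophil genes S100a9 was lower in PAT3 (−0.96), 2 were at a count of 0 in some mouse, and the sums were 109.3 to 177.1, 99.9 to 169.2 and 72.2 to 142.3. With the mean of the macrophage list as a covariate Tlr1, Tlr2, Tlr4, Nod2 and Tmem173 were still called lower and Clec4a4 higher in PAT1, where Card9 (−0.68, adjusted p = 0.0316) and Tlr9 (0.69, adjusted p = 0.0310) were also called. In PAT3 that covariate ended the call of Sigirr (0.19, adjusted p = 0.185) and added Card9 (−0.88, adjusted p = 0.000934) and Clec4a4 (0.52, adjusted p = 0.0468). Between PAT3 and PAT1 it ended that of Tlr4 (0.45, adjusted p = 0.0507) and added that of Clec4a4 (−0.69, adjusted p = 0.0491).

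Some lymphocyte and epithelial markers were also called, those of T cells all lower and those of the other lists in mixed directions. Of 13 T cell genes 3 were lower in PAT1 and 10 in PAT3, with Cd8a at −0.94 and −1.84 and Cd3e at −0.90 and −1.38, and the list summed to 1018 to 1226 normalized counts in Control, 600.5 to 1274 in PAT1 and 414.9 to 758.1 in PAT3. The Control and PAT3 ranges of that sum did not overlap, so the list and the PAT3 treatment cannot be told apart. With the mean of the list as a covariate, 2 members remained called in PAT3, Tlr1 and Tlr2, and Tlr5 (0.63, adjusted p = 0.226), Irak3 (0.17, adjusted p = 0.728), Tmem173 (−0.68, adjusted p = 0.0725) and Sigirr (0.09, adjusted p = 0.877) were not. Over the panel the same covariate left 14 of 547 genes called in PAT3 (2.56%). In PAT1 it left 108 genes called (19.7%), among them 9 members, with Clec4e (1.18, adjusted p = 0.0198), Tirap (−0.42, adjusted p = 0.0198) and Tlr9 (0.73, adjusted p = 0.0194) newly called. Of 12 B cell and follicle genes Cd24a was called higher (0.33) and Cd79b lower (−1.26), both in PAT3, with sums of 2512 to 3653, 2369 to 8099.5 and 2611 to 3666. Of 4 ileal epithelium genes Pigr was lower in both groups (−1.32 and −0.90) and Cd9 higher in PAT3 (0.52), and the list summed to 62951 normalized counts or more in every mouse. Of 5 mature enterocyte genes 2 were higher and 1 lower in each group, with Ceacam1 at −1.26 and −1.05 and Ccl25 at 1.13 and 0.81, and the sums were 36584 to 69874, 30843 to 69680.0 and 22599 to 69171. The macrophage and T cell covariates were chosen after seeing the data, and the part of these cell types in the differences of the sensing genes was not tested otherwise.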

How the data were processed

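Total RNA of the terminal ileum of 24 mice was measured with the NanoString nCounter GX mouse immunology panel. Extraction was by TRIzol and column cleanup per the labels, and by a Qiagen kit per the methods. The authors normalized the counts with DESeq2 (version not given), dividing the counts of a sample by its size factor, and deposited the log2 of the quotient for 547 genes. Of the values above 0 counts 100% came out as whole counts of a sample-specific step (tolerance 0.01 counts). All 276 sample pairs differed beyond counting noise (chi-square at least 3.98 per degree of freedom), so no sample repeats the counts of another. The check cannot tell whether samples share an animal or RNA. Background subtraction is not given in the sources used here, and depth limits precision as stated for Tlr2, Nod2 and Clec4a4, covering counting error only.

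Groups and sex came from the labels, although the legend of the study gives other sizes for PAT1 and PAT3, and replicate numbers follow sample order and pair no mice. Where litters are shared, p-values may be too small. A single limma fit (version 3.58.1, R 4.3.3) over all 24 samples, with no pseudocount or filter, gave the differences of PAT1 and PAT3 from Control and of PAT3 from PAT1, with Benjamini-Hochberg adjustment over 547 genes and a threshold of 0.05. Sex and its interaction with treatment were tested in separate fits. The methods' test was aov with TukeyHSD and false discovery rate correction. The fit was tested on simulated data.

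Members past the threshold in any of the 3 contrasts were given in full, the others by fold change, and of the other lists up to 5 called genes with the largest difference. The members and lists were chosen with earlier results of these data known. Alternatives covered sex, scaling, pseudocount, a filter at a mean log2 value of 5, voom on recovered counts, sample weights, size factor, moderation, marker lists as covariates, single sexes and single mice left out. Of the 26 symbols 25 were current in the RefSeq table of GRCm38.p6 and 1 (Tmem173) was a synonym of Sting1. The promoters are RefSeq's. The table names no genome build, and genes sought by name but not listed above were not analysed here.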

Additional observations from a re-analysis of the deposited data

Results flagged for a closer look

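In 5 of 78 gene and group combinations 1 mouse stood far from the rest of its group, by the gap to its nearest neighbour over the group's range (Dixon's criterion). Chance flags about 1 in 20 groups, 3.9 of 78. PAT1 replicate 1, the shallowest sample, was lowest for Irak4 at 9.69, against 10.47 in the next mouse. PAT3 replicate 4 was highest for Tlr1 at 8.66, against 8.11. PAT3 replicate 7, with 11 counts, was lowest for Tlr2 at 4.24, against 5.20. PAT3 replicate 10 was lowest for Tlr8 at 4.86, against 5.61, with 25 counts. PAT3 replicate 5 was lowest for Tollip at 9.77, against 10.50. Tlr1 and Tlr2 were called lower in PAT3 with each of these mice left out in turn.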

How the results depend on the processing

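Calls of members against Control held under at least 37 of their 39 or 40 alternatives, except Sigirr in PAT3, which held under 18 of 40. The count of members called in PAT1 was 6, and 6 to 7 with 1 mouse left out, but 0 in females alone (23 of 547 genes called). In PAT3 it was 6, and 5 to 8 with 1 mouse left out, but 3 in males alone (122 genes), 3 in females alone (57 genes) and 2 with the T cell list as a covariate (14 genes). Between PAT3 and PAT1 it was 2, and 0 to 4 with 1 mouse left out. It was 0 by the methods' test, with the size factor, B cell list or T cell list as a covariate and in females alone, settings in which no gene of the panel was called, and 5 with sample weights (93 genes), with the enterocyte list as a covariate (73 genes) and in males alone (129 genes), against 23 genes in the reported fit. By the test among groups 8 members were called, and 8 to 11 with 1 mouse left out, 13 with sample weights (309 genes) and 1 in females alone (37 genes), against 189 genes. For sex the count was 0, 0 to 1 with 1 mouse left out, 1 with sample weights (23 genes) and 2 with the enterocyte list as a covariate (14 genes), against 2 genes. The receptor median in PAT1 moved to −0.22 with the filter, which removed Clec4a4, Clec4e, Clec5a and Nod2. In PAT3 it moved to 0.0811 after re-centring, 0.0229 after quantile normalization and −0.37 with the T cell list as a covariate. Card9 reversed to a called −0.68 (adjusted p = 0.0316) in PAT1 with the macrophage list as a covariate. The macrophage and T cell covariates were chosen after seeing the data. The cause of these changes was not tested, and single sexes leave 3 or 4 Control mice. No paired analysis was possible because the replicate numbers follow sample order and the labels tie no mice together.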
